A study of Danio rerio with 5 samples.

Results

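Zebrafish embryos without maternal or zygotic Dicer (MZdicer) were compared with wild type embryos at the shield stage of gastrulation, 6 h after fertilization, across the poly(A)+ transcriptome. The comparison takes 2 of the 5 libraries of the study. The wild type library came from fish of the strain TU/AB/TL/TLF and the MZdicer library from fish of the genotype hu896/hu896, and neither was injected. Each is 1 library of 15 whole embryos, grown at the same temperature. Of 26158 genes in the count tables, 14097 were measured, which means a mean of at least 1 CPM (counts per 1000000 counts of the library) over the 5 libraries after scaling. The other libraries, given here only as context, are MZdicer embryos of the same genotype injected at the 1-cell stage with 1 nl of a 25 µM stock of a miR-430 duplex, of a hairpin cut by Argonaute 2 (Ago2 hairpin), or of that hairpin with phosphorothioate bonds (3xPS hairpin). The study gives no mock-injected library. The labelled strain differs between the groups, so a difference of strain or of exact stage cannot be told apart from the lack of Dicer.

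Dicer cuts precursor hairpins into mature microRNAs, which guide Argonaute proteins to messenger RNAs and lower their translation and stability. In the early zebrafish embryo the most abundant microRNAs are those of the miR-430 family, made at the onset of zygotic transcription and known to speed the deadenylation and decay of many maternally deposited mRNAs. MZdicer embryos are known to gastrulate abnormally and to form a malformed brain. What follows describes classes of genes by function. A short list of literature miR-430 targets, 7 of them measured, was left out of the classes. These targets stay in the totals over all measured genes, and the marker lists were not filtered for them. The classes were not screened for further miR-430 targets and may hold some.

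Total gene counts were 26300080 in wild type and 14867084 in MZdicer, and the 3 injected libraries held 24123349 to 25317886. DICER1 (ENSDARG00000001129), the mutated gene, was at 36.5 CPM in the wild type library, 22.7 in MZdicer, and 22.5, 20.1 and 23.05 with the duplex, hairpin and 3xPS hairpin. All 4 MZdicer libraries were below wild type. To be called higher or lower, a gene had to differ between MZdicer and wild type by at least 2-fold on the log2(CPM + 0.5) scale, with a 95% exact binomial interval of the 2 counts that excluded equality. By this rule 2301 genes (16.3% of those measured) were higher in MZdicer and 819 (5.81%) lower. With 1 library a group there is no replicate check and no p-value; square brackets hold that interval, which reflects counting error alone. The median log2 ratio over all measured genes was 0.02, with quartiles of -0.42 and 0.66, and at least 10-fold differences were seen in 105 genes upwards and 16 downwards. Of the 2900 measured genes without a symbol 14.7% were higher and 7.17% lower.

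Marker lists for the cell types of the shield-stage embryo were summed in both libraries. Summed CPM was 13487 in wild type and 8834 in MZdicer for the outer enveloping layer, 2790.2 and 1882 for ventrolateral and presomitic mesoderm, and 1226 and 858 for the dorsal organizer. Of 15 measured organizer markers 4 were lower and 0 higher, and chrd went from 418 to 175 CPM. In contrast, foxa3, lhx1a and noto were above wild type and not called. The sum of germ cell markers was higher in MZdicer, from 469 to 877 CPM, with 6 of 11 measured members higher. Most of that gain came from buc, which organizes germ plasm, at 169 against 7.36 CPM, and TDRD6 at 191 against 15.8 CPM, while DDX4, PIWIL1 and NANOS3 were not called. Epiblast markers summed to 6404 and 5030.1 CPM, endoderm markers to 558 and 683, and yolk syncytial layer markers to 676 and 651. Of 15 measured epiblast markers 5 were lower and 2 higher, nanog at 512 against 83.6 CPM and sox19b at 220 against 70.2 CPM. Of the 6 measured endoderm markers 0 were called. The endoderm gain came from the identifiers of CXCR4, at 201 and 184 CPM in wild type and 266 and 274 in MZdicer. GATA5, FOXA2 and prdx5 were lower in MZdicer, and ONECUT1 was at 18.99 against 18.2 CPM in wild type. In whole embryos, fewer cells of a type and less RNA per cell cannot be told apart. Markers of tissues that have not formed at this stage summed to 10.9 and 9.76 CPM, and of 24 matched identifiers 10 had no count in wild type and 11 none in MZdicer, among them MYL7, NEUROD1 and CRYAA in both. Only 3 of them were measured, and 2 of these were called in opposite directions. ELAVL3 was higher in MZdicer at 3.08 against 0.629 CPM, and TNNT3 (ENSDARG00000030270) lower at 1.81 against 5.70 CPM. Every list of gastrula cell types was detected in both libraries, as the whole-embryo label requires.

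The measured genes were placed by symbol in 86 classes, of which 85 had at least 5 measured members. These classes held 4312 of the measured genes (30.6%). The value of a class is its median log2 ratio minus the median of all measured genes, so a value of 0 is the typical gene. There were 20 classes at 0.25 or more and 23 at -0.25 or less. Several classes of protein kinases and phosphatases, endosomal sorting, RNA decay and some germ-line classes lay above 0, while ribosome production, mitochondrial gene expression, splicing and several families of patterning factors lay below. Of these 43 classes, 27 came within 0.25 of the typical gene under at least 1 alternative setting, 19 of them when the low-count filter was dropped. Ribosome biogenesis, keratins, T-box factors and endosomal sorting stayed outside 0.25 under every setting tried.

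**Figure D1:**
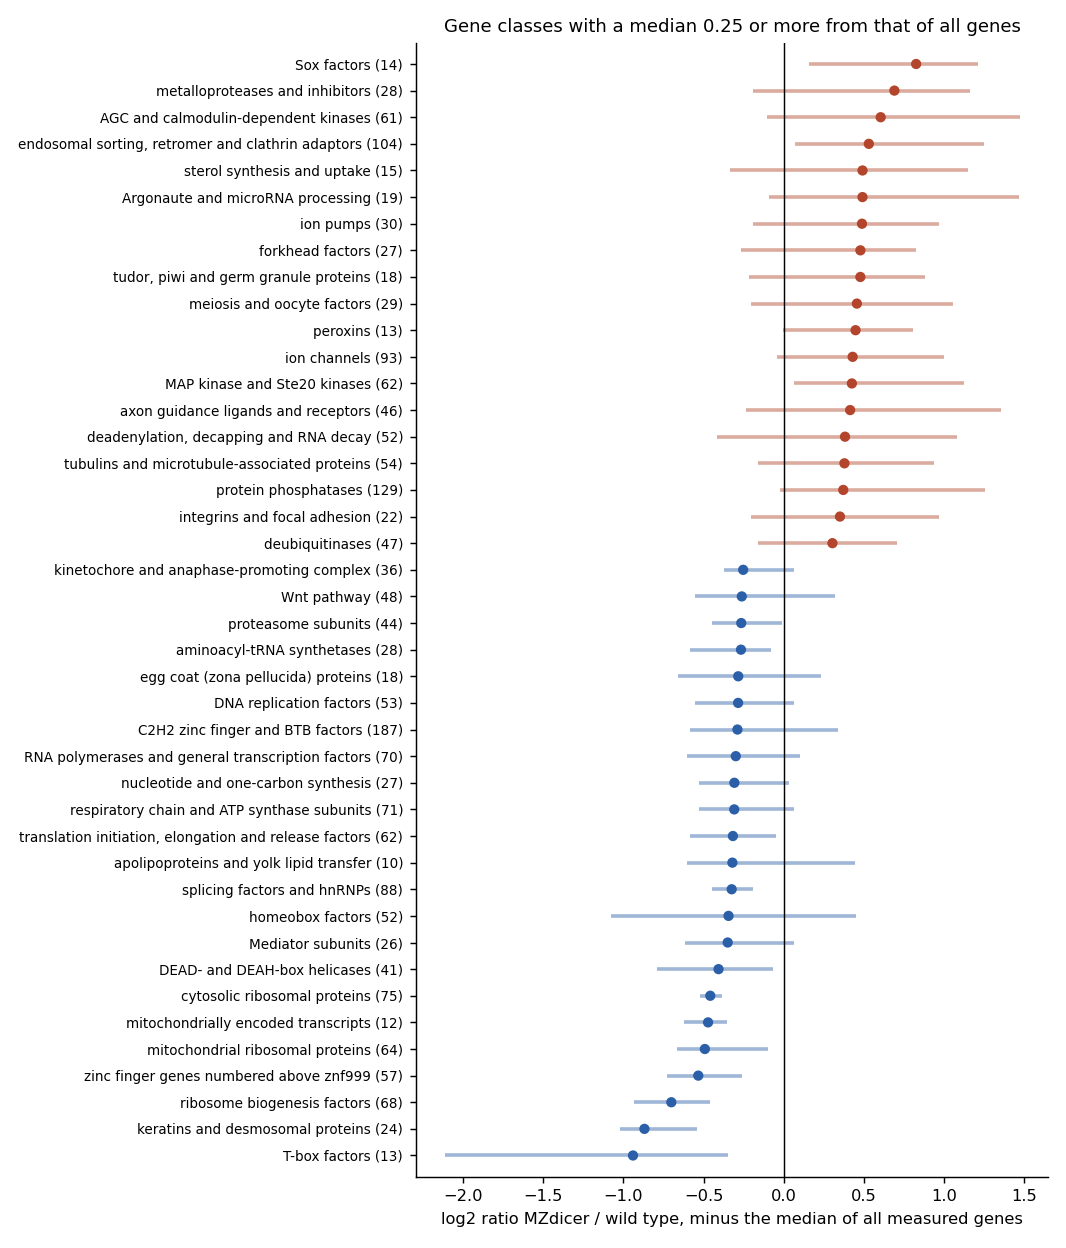
Median log2 ratio of MZdicer over wild type, minus the median of all 14097 measured genes, for the gene classes at 0.25 or more from 0 (points; 1 class is not shown), with the quartiles of the members (bars) and the number of measured members in brackets. The lowest class is the T-box factors at -0.94 and the highest the Sox factors at 0.83 (0.18 without the low-count filter), and the narrow bar of the cytosolic ribosomal proteins contrasts with the wide bars of the T-box and homeobox factors.

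The genes that build ribosomes leaned lower as a group, most of them by less than the 2-fold needed for a call. Of 68 ribosome biogenesis factors, which process ribosomal RNA and assemble the subunits, 66 had a ratio below 1 against 49.04% of all measured genes, and the class median was -0.70. The called members were 8 lower (11.8%, against 5.81% of all genes) and 0 higher. DIMT1 (ENSDARG00000005057), a ribosomal RNA dimethyltransferase, was at 99.04 CPM in the wild type library, 34.6 in MZdicer, and 60.6, 41.8 and 40.7 with the duplex, hairpin and 3xPS hairpin. Wild type stood above all 4 MZdicer libraries, and the DIMT1 level in MZdicer was 2.86-fold lower [2.61, 3.16]. GNL3L, a nucleolar GTPase, was 3.12-fold lower [2.68, 3.65], the small-subunit assembly factor noc4l was 2.46-fold lower [2.19, 2.77], and tsr1, another small-subunit factor, was 2.23-fold lower [2.098, 2.37]. The abundant nucleolar proteins were not called. Nucleolin (ncl) had 3758 against 5541 CPM, a ratio of 0.678 [0.672, 0.685], and nucleophosmin (npm1a) had 1483 against 2345 CPM, a ratio of 0.632 [0.623, 0.642].

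The ribosomal proteins themselves moved by a small and even amount. Of 75 cytosolic ribosomal protein genes 72 had a ratio below 1, the class median was -0.46 and the quartiles of the log2 ratio were -0.50 and -0.36. None was called lower, and 1 was called higher. RPL4 had 532 against 811 CPM and RPL12 526 against 799 CPM. Mitochondrial ribosomal proteins had a median of -0.49 with 1 higher and 4 lower of 64 (1.56% and 6.25%, against 16.3% and 5.81% of all genes). Among them MRPL48 was 3.18-fold lower [2.099, 4.99] and MRPS34 2.66-fold higher [2.403, 2.95]. The 12 measured mitochondrially encoded transcripts all had a ratio below 1 and a median of -0.47, and none was called. MT-CO1, a subunit of cytochrome oxidase, was at 8112 CPM in the wild type library, 6077 in MZdicer, and 6239, 7327 and 6047 with the duplex, hairpin and 3xPS hairpin. Translation factors had a median of -0.32, with 4 higher and 3 lower of 62 (6.45% and 4.84%). Aminoacyl-tRNA synthetases had one of -0.27, with 2 higher and 3 lower of 28 (7.14% and 10.7%). In both classes higher calls were below the 16.3% of all genes, and some members went against the rest. EEF1B2, an elongation factor subunit, was 3.14-fold higher [3.02, 3.27] and EPRS1, the glutamyl-prolyl-tRNA synthetase, 3.37-fold higher [3.19, 3.55], while the cap-binding protein EIF4E2 was 2.35-fold lower [2.03, 2.74] and the isoleucyl-tRNA synthetase IARS1 2.76-fold lower [2.34, 3.26].

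The class of RNA polymerases and general transcription factors had a median of -0.30. Of its 70 measured members 7 were higher (10%, against 16.3% of all genes) and 5 lower (7.14%, near the 5.81% of all genes). The members called lower were POLR1H, 3.08-fold lower [2.43, 3.96], polr1e, 2.71-fold lower [2.36, 3.13], POLR1B, 2.302-fold lower [2.11, 2.52], and POLR1C (also part of RNA polymerase III), all subunits of RNA polymerase I, and polr3glb, a subunit of RNA polymerase III, 2.69-fold lower [2.25, 3.24]. The higher members included the TATA-binding protein TBP at 151 against 42.1 CPM, 3.58-fold higher [3.33, 3.86], and GTF2A1, a subunit of the general factor TFIIA, 4.03-fold higher [3.896, 4.17]. Splicing factors and hnRNPs had a narrow distribution at -0.33, with 76 of 88 below 1. Of the 88, 3 were higher (3.41%, against 16.3% of all genes) and 0 lower. The higher splicing genes were rbm25a (11-fold higher [7.64, 16.3]), LSM4 (5.96-fold higher [5.38, 6.62]) and hnrnph3 (4.44-fold higher [2.53, 8.12]). DEAD- and DEAH-box RNA helicases had a median of -0.41 and Mediator subunits, which link activators to RNA polymerase II, one of -0.35.

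**Figure D2:**
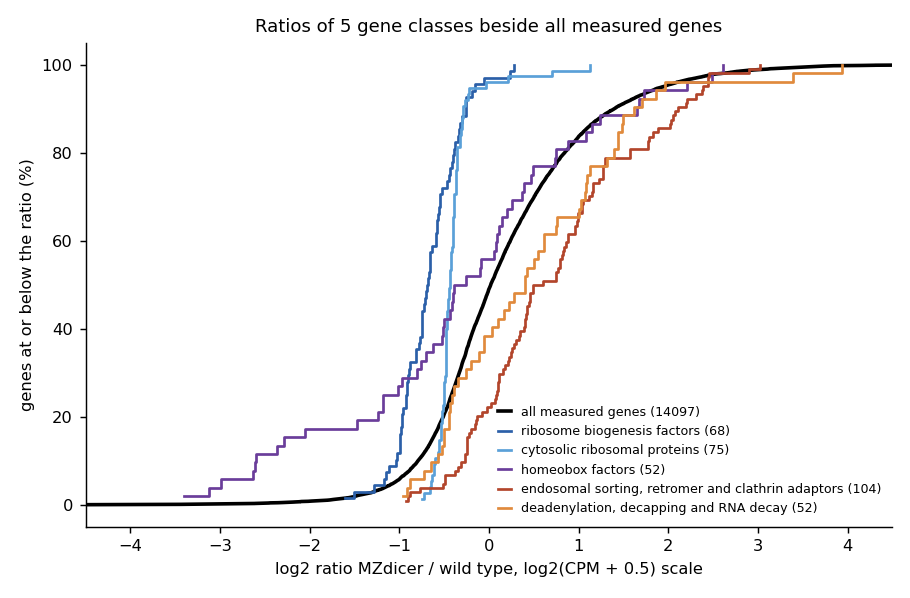
Cumulative share of genes (vertical axis, percent) at or below each log2 ratio of MZdicer over wild type (horizontal axis, log2(CPM + 0.5) scale) for 5 gene classes and all measured genes. The ribosomal protein curve is steep between -0.50 and -0.36 at its quartiles, the endosomal sorting curve runs to the right of all genes, and the homeobox curve has a long tail to the left.

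Machinery that degrades mRNA was called higher more often than other genes. Among 52 measured genes of deadenylation, decapping and RNA decay, 18 were higher (34.6%, against 16.3% of all genes) and 0 lower, with a median of 0.38, or 0.20 relative to genes of similar length. LSM14B (ENSDARG00000025386), an RNA-binding protein of repressed mRNAs known from oocytes, was at 10.7 CPM in the wild type library, 172 in MZdicer, and 8.68, 33.4 and 32.5 with the duplex, hairpin and 3xPS hairpin. The uninjected MZdicer library was the highest and the duplex library lay at the wild type level; the MZdicer level was 15.98-fold higher [14.1, 18.2]. LSM1, part of the ring that promotes decapping, was 13.6-fold higher [9.73, 19.5], the deadenylase CNOT7 was 3.98-fold higher [3.15, 5.06], and btg3, of the BTG family that binds the deadenylase, was 3.93-fold higher [3.67, 4.197]. The scaffold of the CCR4-NOT complex, CNOT1, was not called at 786 against 556 CPM. The Argonaute and microRNA processing class had 8 of 19 higher, and AGO3 (ENSDARG00000063079), an Argonaute, was 8.72-fold higher [7.57, 10.1].

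RNA-binding regulators of stored mRNA had 14 higher and 2 lower of 63 (22.2% and 3.17%, against 16.3% and 5.81% of all genes). Their median was only 0.09, but they held some of the largest single differences. BICC1 (ENSDARG00000061682), a translational repressor of maternal mRNAs in frog and fly, was at 0.59001 CPM in the wild type library, 40.1 in MZdicer, and 0.7104, 3.49 and 12.8 with the duplex, hairpin and 3xPS hairpin. The MZdicer level stood above the other libraries, and that with the duplex was near wild type. caprin2, an RNA-binding protein of maternal origin, was 7.72-fold higher [7.34, 8.11]. Against this, CPEB2, a cytoplasmic polyadenylation element-binding protein, was 2.68-fold lower [2.08, 3.49], and the abundant YBX1 was not called at 2623 against 3457 CPM.

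Germ-line classes had raised medians, but not all had more calls than other genes. Of 18 tudor, piwi and germ granule genes 3 were higher (16.7%, near the 16.3% of all genes) and 0 lower, with a median of 0.48. Of 29 meiosis and oocyte genes, which share members with the former class, 8 were higher (27.6%) and 2 lower, with a median of 0.46, or 0.14 without the low-count filter and 0.12 without the exclusions from the class. TDRD1 (ENSDARG00000007465), a tudor protein of the piRNA pathway, was at 4.76 CPM in the wild type library, 141 in MZdicer, and 11.7, 54.3 and 80.9 with the duplex, hairpin and 3xPS hairpin, and was 29.6-fold higher [24.6, 35.9]. TDRD6, a tudor protein of the germ plasm, was 12.1-fold higher [10.9, 13.5]. DDX4 (Vasa), the helicase used to mark germ cells, had 297 against 299 CPM, a ratio of 0.993 [0.957, 1.03], and tdrd15 was not called at 133 against 197 CPM. The synaptonemal complex gene SYCP1 was 3.46-fold lower [2.29, 5.42]. Egg coat genes did not follow, with 1 higher and 0 lower of 18 and a median of -0.28. The marker list of oocyte, follicle and egg coat had 3 higher and 0 lower of 13 measured members. The higher ones were GDF9 (11.5-fold), slbp2 (3.53-fold) and BTG4 (2.34-fold). That list summed to 790 CPM in wild type and 667 in MZdicer, of which the cyclin CCNB1 alone held 652 and 543 CPM. Its ovarian genes CYP19A1 and figla had no count in either library. By contrast, amh had 13 counts in wild type and 3 in MZdicer, and FOXL2 (ENSDARG00000068417) had 11 and 14. The germ cell marker list given above also holds TDRD6 and DDX4, so its sum is not separate evidence for the germ granule class. That sum moved in the same direction as the class, and the part of germ cells in it was not tested.

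Endosomal sorting stood out by the number of members that were higher. Of 104 genes of endosomal sorting complexes, retromer and clathrin adaptors, which route membrane proteins to lysosomes or back to the surface, 35 were higher (33.7%, against 16.3%) and 0 lower, and the median was 0.53. SNX1 (ENSDARG00000071031), a sorting nexin of the retromer, was at 22.2 CPM in the wild type library, 122.7 in MZdicer, and 55.5, 97.6 and 124 with the duplex, hairpin and 3xPS hairpin. Wild type was lowest, the duplex library intermediate, and the MZdicer level was 5.52-fold higher [5.02, 6.08]. The ESCRT-III subunit chmp4ba was 8.49-fold higher [7.44, 9.72], the ESCRT-0 subunit STAM 5.51-fold higher [5.12, 5.95] and VPS33B, a tethering factor of late endosomes, 10.4-fold higher [6.93, 16.1]. EPN2 and AP1S1 were not called, at 335 against 313 CPM and 181 against 215 CPM. Rab GTPases had 9 higher (18.8%, near the 16.3% of all genes) and 1 lower of 48 and a median of 0.19. Among them RAB8A was 5.87-fold higher [5.21, 6.64] and RAB5C 5.07-fold higher [4.69, 5.49].

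Other compartments of the secretory and lysosomal route varied gene by gene. Lysosomal enzymes and the proton pump had 5 higher and 2 lower of 53 (9.43% and 3.77%, against 16.3% and 5.81% of all genes) and a median of -0.06. CTSZ (ENSDARG00000043081), cathepsin Z, was at 3.89 CPM in the wild type library, 52.8 in MZdicer, and 17.2, 35.6 and 40.7 with the duplex, hairpin and 3xPS hairpin and was 13.5-fold higher [10.98, 16.9], and LAMP2, a lysosomal membrane protein, was 2.65-fold higher [2.59, 2.705], whereas cathepsin B (CTSB) was 2.44-fold lower [2.34, 2.54]. Coats of the endoplasmic reticulum and Golgi had 2 higher (3.28%) and 0 lower of 61 and a median of -0.22. Peroxins had a median of 0.45 with 2 higher (15.4%) and 0 lower of 13. Autophagy factors had one of 0.20 with 4 higher (14.8%) and 0 lower of 27. Both shares were near the 16.3% of all genes.

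Protein kinases and phosphatases were higher more often than other genes. AGC and calmodulin-dependent kinases had 25 of 61 higher (41.0%) and 2 lower, with a median of 0.60. RPS6KA1 (ENSDARG00000033437), a ribosomal S6 kinase, was 15.1-fold higher [12.5, 18.5], PRKCD (ENSDARG00000009208), protein kinase C delta, 15.4-fold higher [11.7, 20.5], and the polarity kinase MARK2 (ENSDARG00000032458) 11.4-fold higher [9.23, 14.2]. Of the members called lower, CAMK1 was 2.91-fold lower [2.36, 3.62] and prkacab, a catalytic subunit of protein kinase A, 2.53-fold lower [2.11, 3.04]. MAP kinase and Ste20-type kinases had 17 higher and 1 lower of 62, including MAP4K3, 14.6-fold higher [11.6, 18.7], and TNIK, 6.49-fold higher [5.79, 7.29]. Of the identifiers of the p38 kinase MAPK14, ENSDARG00000028721 was 4.56-fold higher [4.13, 5.04] and the other was not called. Protein and inositol phosphatases had 37 higher and 2 lower of 129 (28.7% and 1.55%), among them PTPN4 (ENSDARG00000000183), a tyrosine phosphatase, 9.52-fold higher [7.77, 11.7], and ppp2r5cb, a regulatory subunit of phosphatase 2A, 8.92-fold higher [7.97, 10.001].

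Ubiquitin ligases were the largest class of protein turnover and were called higher more often than other genes. Of 182 measured members 44 were higher (24.2%) and 1 lower. FBXO8, an F-box substrate receptor, was 14.6-fold higher [10.9, 19.96], FBXO33 6.17-fold higher [5.06, 7.55] and the RING ligase RNF123 8.88-fold higher [5.32, 15.6]. The lower member was TRIM44, 2.12-fold lower [1.94, 2.32]. Deubiquitinases were not called higher more often, with 6 higher (12.8%, against 16.3% of all genes) and 0 lower of 47. The class median was 0.30, or 0.14 relative to genes of similar length, and USP33 was 4.64-fold higher [4.11, 5.24]. Proteasome subunits lay on the other side, with a median of -0.27 and 32 of 44 below 1. Of the 44, 4 were called higher (9.09%, against 16.3% of all genes) and 0 lower. Chaperones had no common direction, with 12 higher and 6 lower of 97 (12.4% and 6.19%, against 16.3% and 5.81% of all genes) and a median of -0.01. dnajc5ga, a cysteine-string co-chaperone, was at 12.6 CPM in the wild type library, 336 in MZdicer, and 29.8, 194 and 264 with the duplex, hairpin and 3xPS hairpin. It was lowest in wild type and 26.7-fold higher [23.8, 29.99] in MZdicer.

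Transcription factors of gastrula patterning differed widely in both directions. T-box factors had 5 of 13 lower (38.5%), 2 higher (15.4%, near the 16.3% of all genes), and the lowest class median, -0.94. TBX1 (ENSDARG00000031891), of later pharyngeal development, was at 15.6 CPM in the wild type library, 2.88 in MZdicer, and 10.6, 8.36 and 7.35 with the duplex, hairpin and 3xPS hairpin, and tbx16l, a regulator of paraxial mesoderm, was 4.34-fold lower [3.89, 4.86]. EOMES (ENSDARG00000006640), a maternal T-box factor of endoderm formation, was at 11.8 CPM in the wild type library, 169.6 in MZdicer, and 23.1, 113 and 142 with the duplex, hairpin and 3xPS hairpin, and was 14.4-fold higher [12.8, 16.3]. tbx16 itself was not called at 1008 against 949 CPM. Among 52 homeobox factors, 14 were lower (26.9%, against 5.81% of all genes) and 9 higher (17.3%, near the 16.3% of all genes). SIX3 (ENSDARG00000054879), a factor of the anterior neural plate, was at 11.2 CPM in the wild type library, 0.602 in MZdicer, and 5.01, 2.64 and 2.66 with the duplex, hairpin and 3xPS hairpin, and was 18.6-fold lower [9.64, 41.01]. An additional identifier of SIX3, of low level, was not called at 1.34 CPM in MZdicer against 0.905 in wild type. Of the paralogs six4a and six4b, the levels were 11.4-fold lower [7.41, 18.3] and 10.1-fold lower [5.37, 21.5], and meis3, a hindbrain cofactor of Hox proteins, was 15.3-fold lower [7.27, 38.6]. The pluripotency factor pou5f3 was not called at 2475 against 3277 CPM, whereas lhx2a was 7.53-fold higher [3.25, 20.3]. The homeobox class depends on the low-count filter and had a median of 0.0017 with no filter.

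Sox and forkhead factors lay above 0. Of 14 Sox factors 6 were higher and 2 lower, and the class median of 0.83 was 0.18 without the low-count filter, as was that of the forkhead factors, 0.48 with it. SOX11 (ENSDARG00000077811), of neural progenitors, was 3.24-fold higher [3.11, 3.37] and sox13 2.64-fold higher [2.21, 3.15], while the neural factor SOX2 was 2.05-fold lower [1.93, 2.17]. An additional identifier of SOX11 was not called at 841 against 764 CPM. Forkhead factors had 6 higher and 1 lower of 27 (22.2% and 3.70%), with foxp1a 3.797-fold higher [3.42, 4.23] and FOXC1 (ENSDARG00000091481), of mesoderm, 2.37-fold lower [2.09, 2.696]. The class of basic helix-loop-helix factors, matched by symbol, had 12 of 42 lower (28.6%, against 5.81% of all genes) and 7 higher (16.7%, near the 16.3% of all genes). Its higher members included HIF1AN, which is not a helix-loop-helix factor. MYCL was 4.03-fold lower [3.59, 4.54], and MXI1, a partner of MAX that opposes Myc, was 3.004-fold higher [2.82, 3.196]. The mesoderm marker list shares members with these classes, among them tbx6, mespaa, msgn1 and MYF5, so its sum is not separate evidence. Of its 21 measured members 13 were lower, with no member at 0 in either library. The part of this cell type in the T-box and helix-loop-helix results was not tested.

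Zinc finger genes leaned lower by a small amount, most evenly in a numbered subset. The 187 measured C2H2 and BTB factors had a median of -0.29, with 16 higher and 12 lower (8.56% and 6.42%, against 16.3% and 5.81% of all genes). Of the 187, 125 had a ratio below 1 (66.8%, against 49.04% of all genes), while the library share of the class went from 1.18% in wild type to 1.29% in MZdicer. Within them, 57 genes with symbols numbered above znf999 had 53 members below 1 and a median of -0.53, a subset singled out after its values were seen. The lean of the class outside this subset was not tested. zfhx3a was 7.47-fold higher [6.75, 8.27]. These symbols belong to families of similar sequence, so their counts are uncertain.

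Components of the signalling pathways that pattern the gastrula went both ways. The Wnt pathway had 7 of 48 lower (14.6%, against 5.81% of all genes) and 2 higher (4.17%, against 16.3%). TCF7L1 (ENSDARG00000038159), a nuclear repressor of Wnt targets, was at 349 CPM in the wild type library, 125 in MZdicer, and 211, 160.5 and 168 with the duplex, hairpin and 3xPS hairpin. Wild type was the highest library, and the MZdicer level was 2.799-fold lower [2.66, 2.94]. FZD8, a Wnt receptor, was 4.63-fold lower [3.94, 5.47], SFRP1, a secreted antagonist, 2.41-fold lower [2.24, 2.598], and FZD3 2.48-fold higher [2.26, 2.73]. The Nodal, Bmp and TGF-beta pathway had 8 higher and 4 lower of 47, where smad9, a Bmp signal transducer, was 3.06-fold lower [2.38, 3.99] and gdf11, a ligand, 6.12-fold higher [3.404, 11.7]. The Fgf pathway had 3 higher and 2 lower of 21 (14.3% and 9.52%). Its feedback inhibitor SPRY4 was 2.196-fold lower [1.83, 2.65] and the target etv5a 2.64-fold higher [2.48, 2.82]. The Notch pathway had 1 higher and 1 lower of 21 (4.76% each). DLL1, a ligand, was 2.28-fold lower [2.16, 2.41] and RBPJ (ENSDARG00000052091), the nuclear effector, 3.51-fold higher [2.74, 4.51]. The Hedgehog pathway had 3 higher and 2 lower of 16 (18.75% and 12.5%) and a median of 0.11. Its higher members were SCUBE3, SCUBE2 and HHIP. SHH (ENSDARG00000068567), the Hedgehog ligand of the midline, was at 1.34 against 5.9001 CPM, 4.41-fold lower [2.76, 7.43], and another identifier of SHH was not called. Axon guidance genes had 14 higher and 3 lower of 46 (30.4% and 6.52%). Their median was 0.41, or 0.20 relative to genes of similar length, and SEMA3E was 7.19-fold higher [5.64, 9.25]. G protein-coupled receptors had 8 higher (16.3%, the share of all genes) and 6 lower (12.2%) of 49. The adhesion receptor CELSR1 (ENSDARG00000069185), of planar cell polarity, was 2.51-fold lower [2.32, 2.72].

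**Figure D3:**
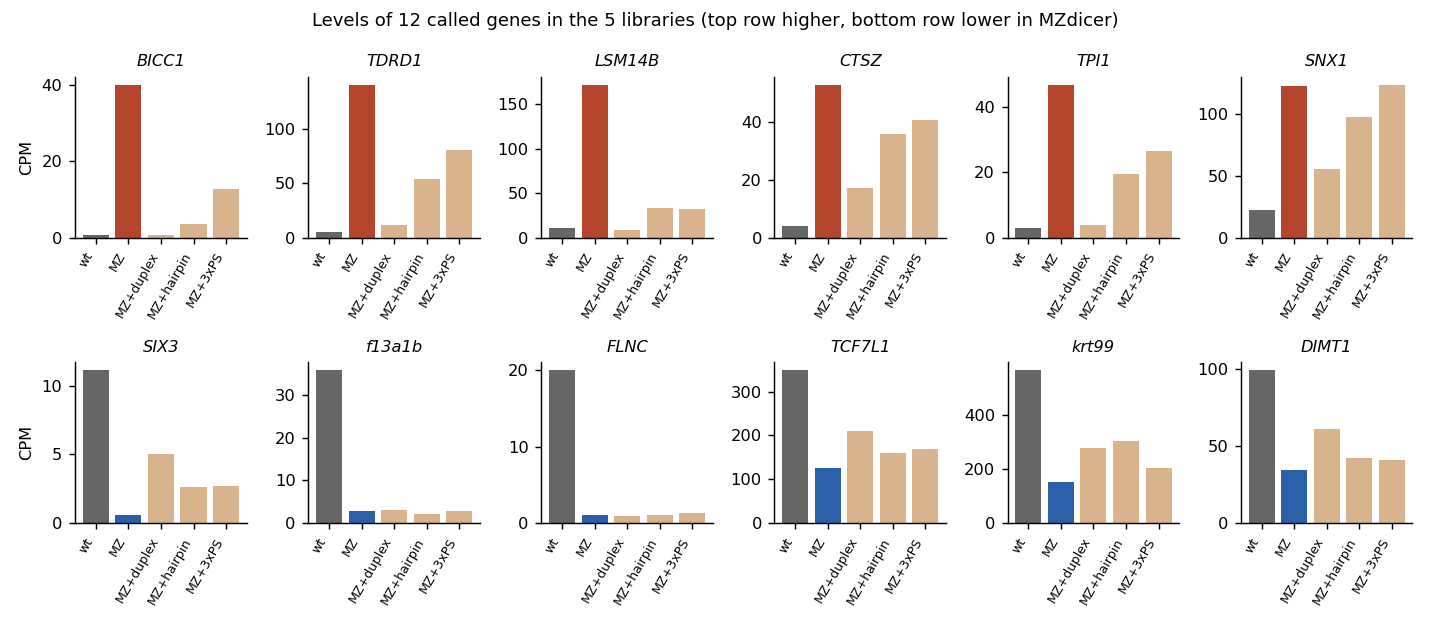
Levels in CPM (vertical axes, each from 0) of 12 called genes in the 5 libraries, wild type (wt), MZdicer (MZ) and MZdicer injected with the duplex, the Ago2 hairpin or the 3xPS hairpin; each bar is 1 library. BICC1 reaches 40.1 CPM in MZdicer from 0.59001 in wild type, while f13a1b and FLNC are low in all 4 MZdicer libraries.

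Keratins and desmosomal proteins, which build the epithelial covering of the embryo, were lower. Of 24 measured members 7 were lower (29.2%), 0 higher, and 22 had a ratio below 1. krt99 (ENSDARG00000019365) was at 566 CPM in the wild type library, 152 in MZdicer, and 278, 301 and 205 with the duplex, hairpin and 3xPS hairpin, and was 3.72-fold lower [3.55, 3.89]. krt17 was 3.43-fold lower [3.16, 3.72]. The most abundant keratins were not called, krt4 at 2124 against 3085 CPM and krt8 at 2297 against 2978 CPM. Many of these genes also mark the enveloping layer, of whose 13 measured markers 5 were lower and 0 higher with none at 0, and the part of that cell layer in the result was not tested. Claudins and tight junction genes did not share the direction, with 6 higher and 1 lower of 32 (18.75% and 3.125%, against 16.3% and 5.81% of all genes). CLDN12 was 3.28-fold higher [3.06, 3.52], and the identifiers of MARVELD2, tricellulin, were called in opposite directions.

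The cytoskeleton and the extracellular space held further large differences. Actin, myosin and their regulators had 17 higher and 6 lower of 89 (19.1% and 6.74%, against 16.3% and 5.81% of all genes) and a median of 0.02. pfn2b (ENSDARG00000003952), a profilin that binds actin monomers, was at 277 CPM in the wild type library, 1607 in MZdicer, and 1038, 1434 and 1504 with the duplex, hairpin and 3xPS hairpin and was 5.798-fold higher [5.65, 5.95], and EZR (ENSDARG00000025091), ezrin, which links actin to the membrane, was 8.55-fold higher [7.804, 9.38]. FLNC (ENSDARG00000018820), filamin C, was at 20.02 CPM in the wild type library, 1.003 in MZdicer, and 0.908, 1.06 and 1.33 with the duplex, hairpin and 3xPS hairpin. It was low in all 4 MZdicer libraries, and a further identifier of FLNC was also called lower. Tubulins and microtubule-associated proteins had 12 higher and 2 lower of 54 (22.2% and 3.70%), with tubb5 9.15-fold higher [8.51, 9.86] and the plus-end protein MAPRE1 (ENSDARG00000042927) 7.98-fold higher [7.32, 8.71]. Metalloproteases and their inhibitors had 11 of 28 higher (39.3%) and a median of 0.69, which was 0.0955 among genes with a mean CPM of at least 5 and 0.18 without a filter, the gelatinase MMP9 being 6.25-fold higher [4.86, 8.103]. Matrix genes had 7 higher and 7 lower of 47 (14.9% each), against 16.3% and 5.81% of all genes. LAMA5, a laminin chain of basement membranes, was 6.41-fold lower [4.81, 8.72] and FN1 (ENSDARG00000006526), a fibronectin, 4.91-fold lower [3.18, 7.93]. Integrins and focal adhesion genes had 6 higher and 0 lower of 22 and a median of 0.35, or 0.15 without the filter.

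Metabolic classes differed from each other. Respiratory chain and ATP synthase subunits had a median of -0.31, with 52 of 71 below 1. Of the 71, 5 were higher and 1 lower (7.04% and 1.41%, against 16.3% and 5.81% of all genes). The higher members included NDUFV1 (2.64-fold higher [2.44, 2.87]) and SDHA (2.105-fold higher [1.97, 2.25]). Glycolysis enzymes had 8 higher and 3 lower of 23 and a large spread. TPI1 (ENSDARG00000025012), triose-phosphate isomerase, was at 2.79 CPM in the wild type library, 46.7 in MZdicer, and 3.83, 19.4 and 26.4 with the duplex, hairpin and 3xPS hairpin, and the other TPI1 identifier was not called. ENO1 (ENSDARG00000022456), an enolase, was 2.89-fold lower [2.37, 3.55], and ALDOA was not called at 314 against 564 CPM. Fatty acid and phospholipid enzymes had 12 higher and 2 lower of 61 (19.7%, near the 16.3% of all genes) and a median of 0.02. The members with large differences included ACADL, an acyl-CoA dehydrogenase, 34.3-fold higher [26.2, 45.7], HADHA (ENSDARG00000060594), of the mitochondrial trifunctional protein, 8.54-fold higher [7.76, 9.42], and CPT2, which acts in the import of fatty acids into mitochondria, 9.65-fold higher [6.78, 14.1]. Sterol synthesis and uptake had 5 higher and 2 lower of 15, MVK, mevalonate kinase, being 4.59-fold lower [2.37, 9.94]. Nucleotide synthesis had a median of -0.31, with TYMS, thymidylate synthase, 2.65-fold higher [2.39, 2.94].

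Classes of membrane transport differed in how often they were called, against 16.3% higher and 5.81% lower over all genes. Ion channels had 24 higher and 5 lower of 93 (25.8% and 5.38%), with the calcium-release channel ITPR3 (ENSDARG00000061741) 6.11-fold higher [5.47, 6.83] and the potassium channel kcnk1a 2.61-fold lower [2.45, 2.78]. Channel genes were of low level, with a median mean CPM of 3.598 against 14.001 over all measured genes, and without the low-count filter the class median was 0.17 in place of 0.43. Solute carriers had 43 higher and 8 lower of 207 (20.8% and 3.86%), with the zinc transporter SLC30A4 13.02-fold higher [10.97, 15.5] and the amino acid transporter SLC7A3 (ENSDARG00000020645) 2.73-fold lower [2.51, 2.97]. ABC transporters and aquaporins had 6 higher and 3 lower of 28 (21.4% and 10.7%) and a median of -0.06. Ion pumps had 8 higher and 2 lower of 30 (26.7% and 6.67%) and a median of 0.49, or 0.0922 without the filter, among them atp2a2a, a calcium pump of the endoplasmic reticulum, 8.26-fold higher [6.93, 9.89].

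Cell cycle and chromatin classes varied in their calls. Cyclins, CDKs and mitotic kinases had a median of 0.01 with 11 higher (16.9%, near the 16.3% of all genes) and 1 lower of 65. DNA replication factors had one of -0.28 with 3 higher (5.66%) and 1 lower of 53. Of the 36 kinetochore and anaphase-promoting complex genes none was called in either direction. DNA repair factors had 10 higher and 4 lower of 62 (16.1% and 6.45%, near those of all genes), the checkpoint kinase ATR being 11.4-fold higher [9.48, 13.9]. Histone-modifying enzymes had 12 higher (12.9%) and 1 lower of 93 and chromatin remodellers 11 higher (20.4%) and 1 lower of 54. The BRM-type remodelling ATPase smarca2 was 17.97-fold higher [15.3, 21.3]. Of 13 histone genes 3 were lower (23.1%, against 5.81%) and 1 higher, the linker histone histh1l1 being 4.14-fold lower [3.77, 4.55]; poly(A) selection does not capture most replication histone mRNAs. Apoptosis and p53 response genes had 12 higher and 2 lower of 60 (20% and 3.33%, against 16.3% and 5.81% of all genes). Among them the Mdm2 relative MDM4 was 3.74-fold higher [3.38, 4.14] and the stress-response gene SESN1 7.95-fold higher [7.04, 8.995]. Immune genes had 22 higher and 8 lower of 94 (23.4% and 8.51%), and the complement gene c3a.1 was 28.2-fold lower [7.61, 236.5].

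Summed over members, the share of the library followed the class median in some classes and not in others. The share of all gene counts held by cytosolic ribosomal proteins was 2.13% in wild type and 1.63% in MZdicer, and that of ribosome biogenesis factors 1.85% and 1.26%. Splicing factors held 5.44% and 4.78%, mitochondrially encoded transcripts 1.81% and 1.39%, and keratins with desmosomal proteins 1.53% and 0.982%. RNA decay factors went from 0.7403% to 1.05%, and endosomal sorting genes from 0.325% to 0.525%. For each of these classes the exact binomial intervals of the 2 libraries, which cover counting error only, did not overlap. Such intervals are narrow at this depth, and the same held for classes with a median near 0. Actin, myosin and their regulators, with a median of 0.02, held 1.44% and 1.68%. Cyclins, CDKs and mitotic kinases, at 0.01, held 0.819% and 0.953%. The lack of overlap therefore does not set a class apart. The keratin share was 1.21% in the duplex library, 1.07% in the hairpin library and 0.944% in the 3xPS library. Other shares went against the class median. T-box factors, with a median of -0.94, held 0.144% in wild type and 0.151% in MZdicer. C2H2 and BTB factors, at -0.29, held 1.18% and 1.29%. Metalloproteases, at 0.69, held 0.0502% and 0.0497%.

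**Figure D4:**
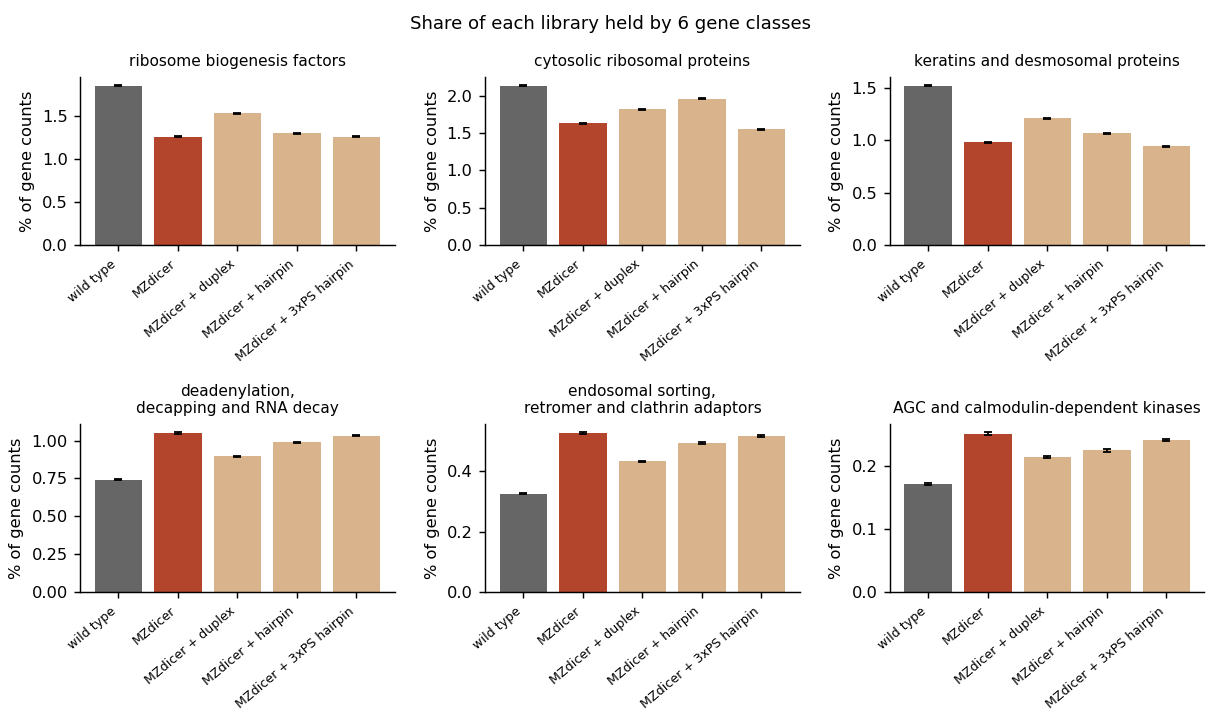
Share of all gene counts (percent, vertical axes from 0) held by 6 gene classes in each of the 5 libraries, with the 95% exact binomial interval, which covers counting error only. The upper classes are higher in wild type than in MZdicer, ribosome biogenesis factors at 1.85% against 1.26%, and the lower classes are lower in wild type, endosomal sorting at 0.325% against 0.525%.

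The injected libraries share the wild type library in every ratio to it, so their class values are set side by side and not compared by a test. Relative to all genes, ribosome biogenesis stood at -0.70 for MZdicer and at -0.37, -0.62 and -0.75 for the duplex, hairpin and 3xPS hairpin libraries over wild type. Keratins stood at -0.87 for MZdicer and at -0.34, -0.70 and -0.83 in that order. Endosomal sorting had 0.53, then 0.31, 0.52 and 0.58. For AGC kinases the value was 0.60, then 0.25, 0.42 and 0.47. Cytosolic ribosomal proteins had -0.46, then -0.31, -0.23 and -0.56, ion pumps 0.49, then 0.44, 0.19 and 0.47, and axon guidance genes 0.41, then 0.50, 0.33 and 0.38. Which injected library lay nearest to 0 differed between the classes. Mitochondrially encoded transcripts stood at -0.47, then -0.45, -0.42 and -0.45, with little difference between the 4 libraries.

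Outside the classes, the largest gain in CPM was that of a gene with a provisional name, si:dkey-188c14.4 (ENSDARG00000077589), at 104 CPM in the wild type library, 2231 in MZdicer, and 502, 1252 and 1769.8 with the duplex, hairpin and 3xPS hairpin. The differences in CPM that follow are not per length and weigh abundant and long transcripts. mkrn4, a makorin zinc finger gene, was at 156 CPM in the wild type library, 829 in MZdicer, and 623, 882 and 868 with the duplex, hairpin and 3xPS hairpin, and MAT2A, the methionine adenosyltransferase, at 624 CPM in the wild type library, 1346 in MZdicer, and 1347, 1209.8 and 1393 with the duplex, hairpin and 3xPS hairpin. The proliferation antigen mki67 was at 2689 against 1723 CPM and was not called. The largest losses in CPM were in abundant genes that were mostly not called, led by hmga1a, a chromatin protein, at 12496 CPM in the wild type library, 9106 in MZdicer, and 10306, 9587 and 8855 with the duplex, hairpin and 3xPS hairpin. gjc4b, a gap junction connexin, had 1861 against 3702 CPM.

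Some genes were nearly absent from 1 of the 2 libraries. A gene of provisional name, si:dkey-19a16.7 (ENSDARG00000071644), had 985 counts in wild type and 0 in MZdicer. Against a floor of 3 counts per library in MZdicer, this gene was at least 193-fold lower, and it had 0, 1 and 1 count in the duplex, hairpin and 3xPS libraries. si:ch211-197g15.9 had 298 counts in wild type, 0 in MZdicer and 2 or 3 in each injected library. Conversely NRAP, known from muscle, had 0 counts in wild type and 54 in MZdicer, at least 30.6-fold higher on the same floor, but 3 in the 3xPS library. CPS1, a urea cycle enzyme, had 0 counts in wild type and 33 in MZdicer, at least 18.7-fold higher. f13a1b (ENSDARG00000036893), a transglutaminase, was at 35.95 CPM in the wild type library, 2.74 in MZdicer, and 2.9996, 2.19 and 2.91 with the duplex, hairpin and 3xPS hairpin, and cspg5a, a proteoglycan, at 9.99 CPM in the wild type library, 0.401 in MZdicer, and 0.553, 0.406 and 0.605 with the duplex, hairpin and 3xPS hairpin. Both were low in all 4 MZdicer libraries. Whether such genes differ by strain was not tested, since strain and genotype cannot be told apart here.

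Genes next to DICER1 on its chromosome travel with the mutation in a cross. Among the 40 nearest measured genes with a matched symbol, 20 on each side in the RefSeq gene order of the assembly GRCz12tu, 4 were higher (10%) and 6 lower (15%), against 16.3% and 5.81% of all genes. With 30 on each side, 7 of 60 were higher and 7 lower (11.7% each). The lower neighbours included HSPA12A (3.97-fold lower [3.26, 4.88]), EFCAB11 (2.74-fold lower [2.06, 3.68]) and mgmt, a DNA repair enzyme (2.21-fold lower [1.73, 2.85]), and the higher ones CYP26C1 (18.2-fold higher [9.52, 39.02]), which degrades retinoic acid, and SETD3 (3.28-fold higher [2.94, 3.66]).

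The calls varied with the length and the level of the gene. Genes were put in 10 bins of equal size by length. In the bin of the shortest genes 8.48% were higher in MZdicer and in that of the longest 25.2%, while the median log2 ratio went from -0.20 to 0.35. Lower calls went from 6.78% to 4.75% over the same bins. By mean CPM, lower calls fell from 9.93% in the lowest of 10 bins to 1.91% in the highest, and higher calls were at 15.0% and 8.01%. Class values were therefore also taken relative to genes of the same length bin. Ribosome biogenesis was then at -0.69, keratins at -0.99, endosomal sorting at 0.60 and Sox factors at 0.93. The values of cytosolic ribosomal proteins moved from -0.46 to -0.26 and those of AGC kinases from 0.60 to 0.44.

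**Figure D5:**
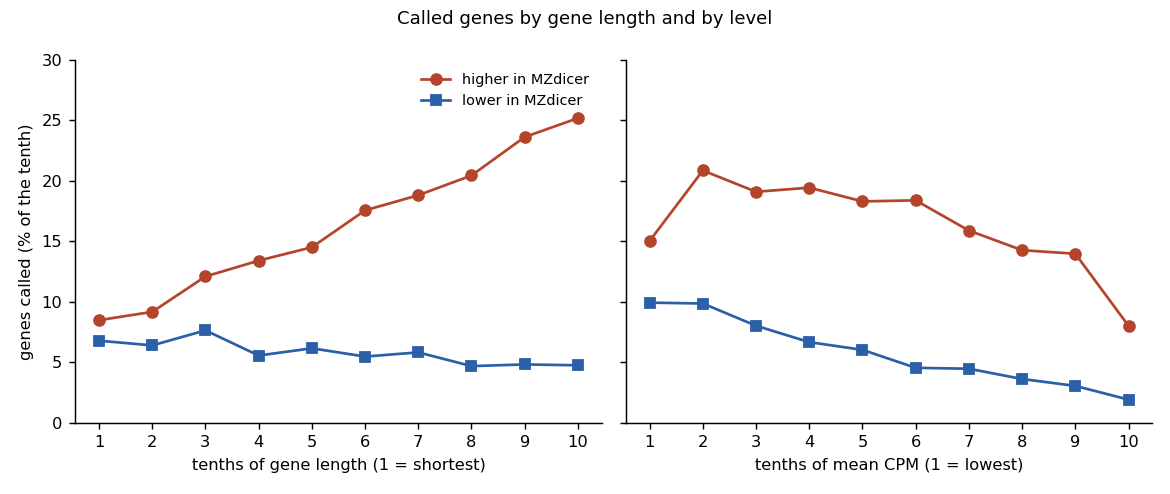
Share of measured genes called higher (circles) or lower (squares) in MZdicer, in percent, by 10 equal bins of gene length (left) and of mean CPM over the 5 libraries (right). Higher calls go from 8.48% for the shortest genes to 25.2% for the longest, and lower calls from 9.93% to 1.91% with rising level.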

How the data were processed

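Poly(A)+ RNA of 15 pooled embryos per library was extracted with Trizol and made into strand-specific libraries, per the labels' protocols. TopHat2 2.0.8 and CASAVA 1.8.2 are named in the submitters' processing notes, as is the build Zv9, also called danRer7. How reads were counted, on which annotation, and how strand and reads with several matches were handled is not given in the sources used here. The authors deposited, per the file headers, whole read counts per gene for reads in class 1 (the main values), expected counts with fractional values for reads of wider classes, and RPKM values of the same counts. Genes with near-identical copies or overlapping neighbours are therefore uncertain.

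Counts were scaled with TMM factors over the 5 libraries (edgeR 4.0.16 in R 4.3.3) and set to CPM. Ratios were taken on the log2(CPM + 0.5) scale for genes with a mean CPM of at least 1, with exact conditional binomial intervals at 95% (SciPy 1.17.1), and the floor for a count of 0 was 3 counts per library. With 1 library a group no test between conditions was made. Classes were matched by gene symbol, 18804 of 26158 identifiers having one. Symbols are written as the gene name table gives them, often in human style, and several identifiers can share a symbol. Classes needed 5 measured members, a gene could be in several, and 7 measured literature targets of miR-430 were left out. The named genes are DICER1 and its neighbours, the 15 higher and 15 lower genes with the largest interval bound nearest equality, the 10 largest gains and losses in CPM, genes with 0 counts in 1 library, up to 4 called members per direction and 2 abundant uncalled members of each class, and markers. Members, classes and lists were chosen with earlier results of these data known. The exclusions from 31 classes, the mitochondrially encoded and znf classes, the 0.25 limit on class medians, the classes and genes plotted, the neighbour windows and the listing of genes with 0 counts were chosen after their values were seen. DESeq2 1.42.0 size factors, other scalings, filters, pseudocounts, count columns and RPKM were tried as alternatives. The ratio script was tested on simulated data. Gene order came from the RefSeq table of GRCz12tu, and 8559 measured genes were placed in it by symbol. Some genes and 1 gene class are not reported here.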

Additional observations from a re-analysis of the deposited data

Results flagged for a closer look

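Of the wider read classes that the main values leave out, 9 genes with at most 3 class 1 counts in both libraries had a higher level in MZdicer than in wild type, in CPM of the expected counts over all reads. The level of si:ch211-139k8.4 was 707 CPM in MZdicer against 32.4 CPM in wild type, dtnba was at 30.9 and 5.32 CPM, and si:ch211-195o19.4 at 29.6 and 8.47 CPM. SLC25A28, a mitochondrial iron carrier, was at 11.5 and 3.72 CPM, and CSK, a kinase that restrains Src kinases, at 10.8 and 3.61 CPM. The genes without a symbol were ENSDARG00000088081 at 42.2 and 16.9 CPM, ENSDARG00000086858 at 21.9 and 4.94 CPM, ENSDARG00000044202 at 15.7 and 7.67 CPM, and ENSDARG00000091537 at 12.3 and 4.03 CPM. What read classes other than the first hold is not given in the sources used here, and such reads may be shared between similar genes. With groups of 1 library no sample could be compared with others of its group.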

How the results depend on the processing

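The number of higher genes stayed within 1.5 times of 2301 under every other scaling, filter, pseudocount and count column tried, while the number of lower genes moved with some. With upper-quartile factors, which shifted the median of all genes to -0.17, 1349 were lower and 1833 higher. With a mean CPM of at least 5, 435 were lower and 1553 higher, and with a pseudocount of 2, 496 and 1624. At a 1.5-fold threshold 3806 were higher and 2337 lower, and at 4-fold 646 and 114. Of 473 called genes that could be named, 0 reversed under the alternatives run. A called gene differs by at least 2-fold and the scalings shift ratios by far less, so this count says little about robustness. Of all 648 that could be named, 449 had a ratio that moved beyond its counting interval with upper-quartile factors. The number was 253 with a pseudocount of 2 and 178 with total-count scaling. Of the 43 class medians at 0.25 or more from 0, 2 reversed, and 27 came within 0.25 under at least 1 alternative: 19 without a filter, 12 within bins of gene length, 8 with a mean CPM of at least 5, 8 within bins of mean CPM, 6 with a pseudocount of 2 and at most 3 under each other. Without a filter the median was 0.0017 for homeobox factors, 0.23 for AGC kinases, 0.17 for ion channels, 0.18 for Sox factors, forkhead factors and metalloproteases, 0.0922 for ion pumps, 0.14 for meiosis and 0.15 for integrins. With a mean CPM of at least 5 the apolipoprotein median was 0.19, against -0.32, the G protein-coupled receptor median 0.49, that of cytokines and innate immunity 0.54, that of collagens and matrix -0.42 and that of cytosolic ribosomal proteins -0.42. Within 10 bins of gene length the medians were -0.26 for cytosolic ribosomal proteins, -0.36 for mitochondrial ones, -0.13 for the proteasome, -0.10 for the respiratory chain, -0.19 for histone-modifying enzymes and -0.23 for receptor tyrosine kinases. Within 10 bins of mean CPM they were -0.27 for cytosolic ribosomal proteins and -0.15 for splicing factors. The cause was not tested. These strata and the class patterns without exclusions were added after seeing the data. No paired analysis was possible because each group has 1 library, and leaving out a replicate gives no value. The smaller MZdicer library limits genes of low level, and its floor was 0.201 CPM against 0.118 CPM in wild type.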
